A study of Arabidopsis thaliana with 9 samples.

Results

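Jasmonate-treated wild-type seedlings were set directly against mock-treated seedlings of a Polycomb mutant, over all genes of Arabidopsis thaliana. The comparison takes 6 of the series' 9 libraries, chosen by their labels alone: 3 of JA WT and 3 of mock lhp1. JA WT stands for Col-0 seedlings given 5 µM jasmonate for 3 h. Mock lhp1 stands for lhp1 seedlings given ethanol diluted 5000-fold for a mock treatment; the deposited table writes the allele as lhp1-3. All were whole seedlings 6 days old from liquid MS medium with sucrose, and polyadenylated RNA was sequenced. The remaining group, Col-0 with the mock solution (mock WT), took no part in the fit, and its levels are given side by side where a result turns on them. Hormone and genotype both differ between the compared groups, so the effects of the one and of the other cannot be told apart within the contrast.

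Jasmonate, in its active conjugate with isoleucine, binds the receptor COI1 together with JAZ proteins and sends the JAZ proteins to degradation, which frees MYC transcription factors to switch on defence genes, the genes of jasmonate synthesis and the JAZ genes themselves. Polycomb group proteins act in the other direction on chromatin: a Polycomb methyltransferase complex marks histone H3 at silent genes, and LHP1, a chromodomain protein, binds that mark. Floral homeotic genes, the flowering signal FT and other developmental regulators are known Polycomb targets that stay silent in young seedlings. lhp1 mutants are known for small, curled leaves and early flowering.

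The targeted gene was checked first. LHP1 (AT5G17690, chromosome 5, 5827142–5829763) was measured at 19.1, 18.25 and 19.4 CPM in JA WT replicates 1 to 3 and at 10.3, 8.41 and 9.94 CPM in mock lhp1 replicates 1 to 3. The groups did not overlap, and the log2 fold change was 0.99 ± 0.10 (JA WT minus mock lhp1, with an approximate standard error from the F statistic; edgeR quasi-likelihood test, Benjamini-Hochberg adjusted p = 2.00e-07). CPM here are counts relative to library size, scaled with TMM factors. The allele's lesion is not described in the labels, so how far counts over the whole gene report on it was not tested. JA WT libraries held 22360776 to 31454984 counts and mock lhp1 libraries 18081553 to 20614062. Markers of root hair, root tip, guard cell lineage and green tissue were all present in both groups. In whole seedlings fewer cells of a type and less RNA per cell cannot be told apart. Mock WT replicate 2 lay apart from replicates 1 and 3, towards mock lhp1 in genes high in that group: its 14 floral organ MADS genes summed to 149 CPM, against 35.5 and 34.6 CPM in replicates 1 and 3. Whether material was mixed was not tested, so mock WT is given library by library and values of replicate 2 carry this doubt.

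Of 20613 genes tested, 5546 (26.9%) were higher in JA WT and 5329 (25.9%) lower at an adjusted p below 0.05, 52.8% in either direction, with a median log2 fold change of −0.003 over all genes. At 2-fold or more, 1014 genes (4.92%) were higher and 1466 (7.11%) lower. Larger numbers on the lower side held at every size counted: 286 genes were at least 4-fold higher and 376 at least 4-fold lower, 76 genes were at least 16-fold higher and 93 at least 16-fold lower, and 30 and 59 passed 32-fold. The groups' CPM did not overlap in 12533 genes (60.8%). The biological coefficient of variation was 0.0686, a single value for both groups together. Between pairs of libraries of a group, chi-square per degree of freedom was 5.70 to 11.9 in JA WT and 2.47 to 3.68 in mock lhp1. This measure rises with depth as well as with spread, and the JA WT libraries were mostly deeper. Scaling by total counts, without TMM factors, moved log2 fold changes down by a median of 0.239, less for genes near 0 in a group, and then 2988 genes were higher and 10223 lower. A log2 difference between 0 and about 0.24 can thus change sign with the scaling.

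The genes on each side lay at different levels. Those at least 2-fold higher in JA WT had a median of 17.8 CPM there and 4.53 CPM in mock lhp1, and 24.8% of them (251 genes) lay below 1 CPM in mock lhp1. Those at least 2-fold lower had a median of 1.39 CPM in JA WT and 4.598 CPM in mock lhp1, and 42.6% (624 genes) lay below 1 CPM in JA WT. Over all tested genes the shares below 1 CPM were 7.53% in JA WT and 5.73% in mock lhp1. In mock WT the medians were 7.64 CPM for the higher and 2.64 CPM for the lower genes, replicate 2 included. The lower side held many genes that were barely measured in jasmonate-treated wild type. Genes chosen as lower in a group are low there partly by that choice, and such genes can pass the filter through the other group. The shares below 1 CPM therefore follow in part from the selection.

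**Figure D1:**
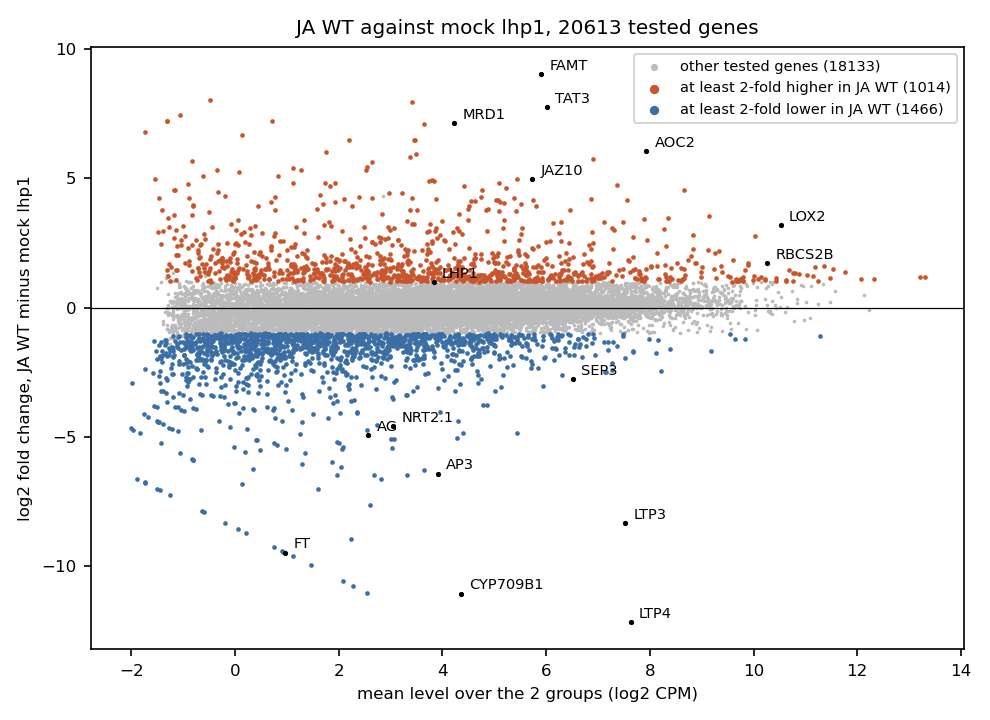
Each point is 1 of the 20613 tested genes, with the mean level of both groups on the x axis (log2 CPM) and the log2 fold change, JA WT minus mock lhp1, on the y axis. Genes called and at least 2-fold higher (1014) are orange, those called and at least 2-fold lower (1466) are blue, and the named genes are labelled. Large differences at high levels were seen for LTP3 and LTP4 below the line and for FAMT, TAT3 and AOC2 above it.

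Among genes of at least 5 CPM whose groups did not overlap, 10 were named on the JA WT side for the largest differences, among them genes of jasmonate synthesis, its breakdown and its defence outputs. FAMT (AT3G44860, chromosome 3, 16379571–16381434), whose enzyme methylates farnesoic acid, was measured at 164, 90.3 and 103 CPM in JA WT replicates 1 to 3 and at 0.398, 0.102 and 0.178 CPM in mock lhp1 replicates 1 to 3, which came to 9.01 ± 0.58 on the log2 scale (edgeR adjusted p = 2.42e-04). TAT3 (AT2G24850, chromosome 2, 10582074–10585216), a tyrosine aminotransferase gene, was measured at 140.1, 131 and 113 CPM in JA WT replicates 1 to 3 and at 0.597, 0.306 and 0.847 CPM in mock lhp1 replicates 1 to 3, a difference of 7.74 ± 0.17 (edgeR adjusted p = 6.75e-12). Both stayed below 1 CPM in all 3 mock lhp1 libraries and were high in all JA WT libraries. JOX3 and JOX4 (AT2G38240), whose enzymes hydroxylate jasmonate, differed by 7.09 and 7.96 on the log2 scale, and AOC2, NATA1, the FAMT neighbour AT3G44870, the phosphatase gene AT1G14250 and the RING/U-box gene AT1G35625 by 6.05, 5.94, 6.47, 6.46 and 5.83. FAMT and AT3G44870 lie next to each other and encode related methyltransferases. Without mock lhp1 replicate 1 the FAMT difference was 9.65.

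One gene of this set was set apart by its level in mock WT. MRD1 was measured at 37.1, 36.9 and 37.4 CPM in JA WT replicates 1 to 3 and at 0.497, 0.102 and 0.178 CPM in mock lhp1 replicates 1 to 3, a difference of 7.14 ± 0.18 (edgeR adjusted p = 1.04e-14), and at 7.97 without mock lhp1 replicate 1. In mock WT it reached 36.0, 16.7 and 35.0 CPM, so that mock WT replicates 1 and 3 lay at the JA WT level. FAMT, by contrast, was at 0.0840, 0.0362 and 0.983 CPM in mock WT, and TAT3 at 0.168, 0.942 and 1.32 CPM, both beside the mock lhp1 level.

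On the mock lhp1 side the same rule named 10 genes of mixed roles, led by a lipid transfer gene. LTP4 (AT5G59310, chromosome 5, 23924990–23925957) was measured at 0.170, 0.0485 and 0.0345 CPM in JA WT replicates 1 to 3 and at 355, 419 and 415 CPM in mock lhp1 replicates 1 to 3 (log2 fold change −12.14 ± 0.16, edgeR adjusted p = 1.36e-16). LTP3 (AT5G59320, chromosome 5, 23928954–23929816), its tandem neighbour, was measured at 1.02, 0.971 and 1.35 CPM in JA WT replicates 1 to 3 and at 337, 381 and 381 CPM in mock lhp1 replicates 1 to 3 (−8.33 ± 0.10, adjusted p = 1.48e-18). LTP4 was all but absent from JA WT, with 6 reads in the 3 libraries together, while LTP3 kept about 1 CPM there. In mock WT, LTP4 stood at 0.0420, 211 and 0.0756 CPM and LTP3 at 1.55, 193 and 1.97 CPM, high in replicate 2 alone. The sequences of these genes are alike, and the handling of reads that match both is not stated, so the split between them is uncertain. Of the other lipid transfer genes LTP5 was higher (0.93 ± 0.06; 375, 367 and 410.1 CPM in JA WT and 187, 207 and 209 CPM in mock lhp1), LTP2 higher by 0.42 with a call lost with total counts (0.18) and without JA WT replicate 1 (0.40), mock lhp1 replicate 1 (0.36) or mock lhp1 replicate 3 (0.42), LTP6 lower (−0.38) and LTP1 not called (−0.05).

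CYP709B1, a cytochrome P450 gene, had 1 read in JA WT against 2548 in mock lhp1, a ratio of 2996 (exact 95% counting interval 537 to 118400) after scaling to depth; the interval covers counting error only. AT1G11590, annotated to the plant invertase and pectin methylesterase inhibitor superfamily, had no read in JA WT and 13.7, 10.04 and 11.2 CPM in mock lhp1. That makes it at least 284-fold higher in mock lhp1, with the JA WT group set to a floor of 3 counts. The superfamily label does not say whether a member encodes an inhibitor. AO4, an aldehyde oxidase gene, differed by −7.64, SEP1 by −6.61, the B3-type factor gene AT5G60140 by −6.48, GILT by −6.46, AP3 by −6.42 and the cellulose synthase gene CESA10 by −6.27. Fitted values of genes this close to 0 moved with single libraries: without JA WT replicate 1 they were −13.07 for LTP4 and −11.07 for AO4, and without JA WT replicate 3 they were −12.77 for CYP709B1 and −6.96 for AO4.

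Within the jasmonate pathway the JAZ, synthesis and catabolism genes were mostly higher in JA WT, and the receptor and transcription factors less uniformly so. Of the JAZ repressors all 13 listed genes were tested, 11 were higher in JA WT, none was lower, and the median was 2.92 against −0.003 for all genes. JAZ10 (AT5G13220, chromosome 5, 4218786–4221077) was measured at 105, 105 and 100.1 CPM in JA WT replicates 1 to 3 and at 2.79, 3.72 and 3.34 CPM in mock lhp1 replicates 1 to 3. All JA WT libraries lay far above all mock lhp1 libraries, a 31.4-fold difference (4.97 ± 0.09, edgeR adjusted p = 1.36e-16). JAZ9 stood at 193, 157 and 144 CPM in JA WT and 11.99, 11.9 and 12.4 CPM in mock lhp1 (3.76 ± 0.11), again without overlap. JAZ8 and JAZ13, which stayed at a few CPM, differed by 5.09 ± 0.40 and 5.25 ± 0.49; without mock lhp1 replicate 2 JAZ8 differed by 6.05, and without mock lhp1 replicate 3 JAZ13 did by 6.05. JAZ4 and JAZ11 did not pass: JAZ4 stood at 13.8, 11.7 and 11.4 CPM in JA WT and 12.4, 15.2 and 14.0 CPM in mock lhp1, and JAZ11 at 11.7, 10.3 and 10.6 CPM in JA WT and 12.04, 9.99 and 10.5 CPM in mock lhp1, both with overlapping groups; with total counts 11 JAZ genes were higher and 1 lower. Summed over the list, the JAZ genes came to 1024, 912 and 873 CPM in JA WT, 175, 181 and 182 CPM in mock lhp1 and 173, 165 and 153 CPM in mock WT, so mock lhp1 and mock WT lay side by side.

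The synthesis list covers the path of the hormone from the chloroplast to the peroxisome. Differences at the peroxisomal steps are not given gene by gene here. 14 of the 15 listed genes passed the filter on low counts, 12 were higher in JA WT, 9 of them at least 2-fold, and the median was 1.64. LOX2, the lipoxygenase of the first step, was measured at 3259, 2523 and 2167 CPM in JA WT replicates 1 to 3 and at 296, 288 and 299 CPM in mock lhp1 replicates 1 to 3 (3.17 ± 0.16, edgeR adjusted p = 1.85e-05). AOS, allene oxide synthase, stood at 991, 677 and 653 CPM in JA WT and 32.9, 33.9 and 33.7 CPM in mock lhp1 (4.53 ± 0.22), and its partners AOC1 and AOC2, allene oxide cyclases, differed by 5.75 ± 0.17 and 6.05 ± 0.11. In each of these genes JA WT replicate 1 was the highest of its group and no library overlapped the mock lhp1 range. AOC1 and AOC2 are close copies and their split is uncertain. JAR1, which joins jasmonate to isoleucine, was the 1 lower gene (−0.27; 51.4, 56.3 and 57.7 CPM in JA WT and 69.0, 67.8 and 63.6 CPM in mock lhp1), and JMT, which methylates jasmonate, was not called (0.66, edgeR adjusted p = 0.162). AOC2 was higher in mock WT (36.4, 26.8 and 50.8 CPM) than in mock lhp1 (7.66, 6.32 and 7.75 CPM), a side-by-side value that was not tested here.

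Genes that break jasmonate down or inactivate it formed the list with the highest median of those with at least 3 tested genes (3.41); 9 of the 10 listed genes were tested and all 9 were higher in JA WT. JOX4 (AT2G38240) was measured at 22.4, 20.3 and 21.4 CPM in JA WT replicates 1 to 3 and at 0.0497, 0.102 and 0.0891 CPM in mock lhp1 replicates 1 to 3 (7.96 ± 0.21, edgeR adjusted p = 1.03e-14), and JOX3 at 24.4, 23.9 and 26.4 CPM in JA WT and 0, 0.306 and 0.223 CPM in mock lhp1. Both were near 0 in every mock lhp1 library. CYP94B1, which oxidises the isoleucine conjugate, stood at 66.9, 65.9 and 63.3 CPM in JA WT and 3.88, 3.67 and 4.01 CPM in mock lhp1 (4.08 ± 0.08). ST2A, a sulfotransferase of hydroxyjasmonate, stood at 97.6, 66.4 and 73.5 CPM in JA WT and 4.33, 4.03 and 4.099 CPM in mock lhp1 (4.25 ± 0.18) and at 25.7, 11.9 and 13.9 CPM in mock WT, between the 2 groups.

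The receptor and the transcription factors were less uniform. 12 of the 13 listed genes were tested, 7 were higher, 1 was lower, and the median was 0.60. MYC2 (AT1G32640, chromosome 1, 11798119–11801407), the leading activator of the pathway, was measured at 128, 131 and 124 CPM in JA WT replicates 1 to 3 and at 39.5, 36.0 and 35.1 CPM in mock lhp1 replicates 1 to 3 (1.79 ± 0.06, edgeR adjusted p = 3.36e-13), without overlap. MYC4, a close relative, was the 1 lower gene (−0.51). COI1, MYC3, JAM3 and ANAC055 did not pass, with differences of −0.04, 0.06, −0.11 and 0.16; with total counts 6 genes of the list were higher and 4 lower. JAM1, a repressor that competes with MYC factors, differed by 2.05 ± 0.08, ANAC019 by 1.88 ± 0.19, and ERF1, of the ethylene and jasmonate branch, by 3.37 ± 0.48. ERF1 stood at 3.79, 2.72 and 7.31 CPM in JA WT and 0.448, 0.561 and 0.356 CPM in mock lhp1, with JA WT replicate 3 the highest.

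Sequences around the starts of genes on both sides are shown because the MYC factors are known to bind the G-box, CACGTG, and because LTP4 carried the largest fitted difference and LTP3 lies beside it. Each window runs from 250 bases before to 50 after the annotated start, 5′ to 3′ on the gene's own strand, from RefSeq's TAIR10.1 assembly, with matches to the searched motifs in capitals. They were chosen after the values were seen, as genes of the described lists with 2 G-boxes (JAZ3 at chr3:6119457-6119756 on the plus strand, DFR at chr5:17165983-17166282 on the minus strand and PSAH2 at chr1:19454548-19454847 on the plus strand) and as the lipid transfer pair (LTP3 at chr5:23928704-23929003 on the plus strand and LTP4 at chr5:23925908-23926207 on the minus strand).
JAZ3: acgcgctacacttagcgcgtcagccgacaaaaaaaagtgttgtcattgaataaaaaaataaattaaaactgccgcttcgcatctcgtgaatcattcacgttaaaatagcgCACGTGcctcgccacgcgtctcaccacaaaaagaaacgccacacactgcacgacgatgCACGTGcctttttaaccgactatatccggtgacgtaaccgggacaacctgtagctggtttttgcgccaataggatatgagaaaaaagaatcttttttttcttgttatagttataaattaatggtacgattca
DFR: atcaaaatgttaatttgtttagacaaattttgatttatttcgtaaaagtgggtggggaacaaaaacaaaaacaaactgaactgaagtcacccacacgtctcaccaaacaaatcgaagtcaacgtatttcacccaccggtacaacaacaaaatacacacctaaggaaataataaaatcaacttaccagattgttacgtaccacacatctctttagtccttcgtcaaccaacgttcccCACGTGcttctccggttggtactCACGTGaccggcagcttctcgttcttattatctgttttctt
PSAH2: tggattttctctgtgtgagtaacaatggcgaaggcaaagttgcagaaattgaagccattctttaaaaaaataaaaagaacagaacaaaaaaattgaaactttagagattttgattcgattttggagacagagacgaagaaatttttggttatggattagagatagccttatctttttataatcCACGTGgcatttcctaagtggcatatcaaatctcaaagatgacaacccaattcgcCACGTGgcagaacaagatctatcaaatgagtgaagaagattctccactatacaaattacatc
LTP3: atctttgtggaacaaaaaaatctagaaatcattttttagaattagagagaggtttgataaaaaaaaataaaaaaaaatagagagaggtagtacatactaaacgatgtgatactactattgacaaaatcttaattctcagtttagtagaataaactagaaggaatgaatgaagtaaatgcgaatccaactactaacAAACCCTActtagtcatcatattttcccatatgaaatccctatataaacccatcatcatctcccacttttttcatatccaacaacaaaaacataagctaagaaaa
LTP4: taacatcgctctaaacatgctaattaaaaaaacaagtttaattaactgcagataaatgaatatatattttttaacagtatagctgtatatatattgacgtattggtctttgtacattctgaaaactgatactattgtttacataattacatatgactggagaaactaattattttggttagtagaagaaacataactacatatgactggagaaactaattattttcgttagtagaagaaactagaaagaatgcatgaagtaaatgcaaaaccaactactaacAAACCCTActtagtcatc
The capitals are G-boxes in the first 3 and a telobox, AAACCCTA, in both LTP windows. The G-boxes began 140 and 82 bases before the start of JAZ3, 14 before and 9 after that of DFR, and 67 and 12 before that of PSAH2. JAZ3 was higher in JA WT by 1.37 ± 0.07, DFR, an anthocyanin enzyme gene, by 1.85 ± 0.14 and PSAH2, a photosystem I subunit gene, by 0.72 ± 0.05. The telobox began 55 bases before the annotated start of LTP3 and 32 after that of LTP4, inside a run of 30 bases that both windows share: ccaactactaacAAACCCTActtagtcatc.

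Across all genes, 14.2% of the promoter windows of genes at least 2-fold higher in JA WT held a G-box (141 of 991), against 6.48% of those at least 2-fold lower (95 of 1466) and 8.59% of all tested genes (1760 of 20489). Of 38 JAZ, synthesis and catabolism windows 8 held one (21.1%), among them JAZ2, JAZ7, JAZ8, JAZ13, AOS and ACX1; the JAZ10 window held none. The telobox was in 2.93% of the higher, 3.34% of the lower and 5.50% of all windows, the GAGA repeat GAGAGAGA in 5.65%, 7.91% and 8.56%, the GCC-box GCCGCC in 2.93%, 1.23% and 2.66%, and the evening element AAAATATCT in 3.13%, 2.73% and 2.92%. Both strands were searched, and overlapping repeats counted once per window. With all called genes in place of those at 2-fold, the G-box share of the higher genes was 10.7% and the telobox share 7.93%, above the share of all tested genes for both. These are counts of letters in a window and say nothing of binding.

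**Figure D2:**
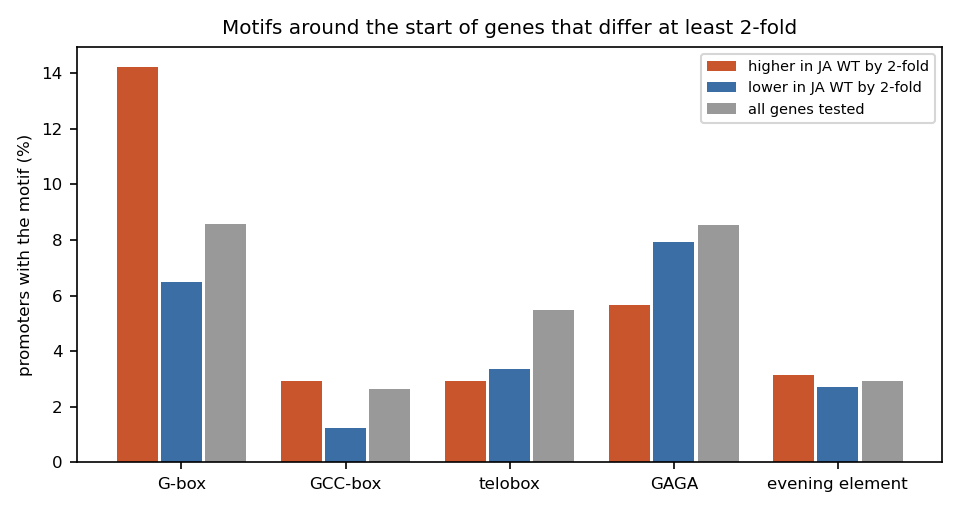
Bars give the percentage of promoter windows that hold each motif, for genes at least 2-fold higher in JA WT (orange), at least 2-fold lower (blue) and all tested genes (grey), with motifs on the x axis. The G-box was in 14.2% of the higher, 6.48% of the lower and 8.59% of all windows.

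The defence outputs of the pathway were all on the JA WT side. 13 of the 14 listed genes were tested and 13 were higher, 12 of them at least 2-fold, with a median of 2.98. VSP2 (AT5G24770, chromosome 5, 8500468–8502224), a vegetative storage protein that deters insects, was measured at 59.2, 47.1 and 53.0 CPM in JA WT replicates 1 to 3 and at 5.07, 2.96 and 3.61 CPM in mock lhp1 replicates 1 to 3 (3.77 ± 0.15, edgeR adjusted p = 5.38e-09). No mock lhp1 library came near the JA WT range, and mock WT lay lower still at 0.504, 1.99 and 0.265 CPM. NATA1, which acetylates ornithine, stood at 26.0, 24.5 and 16.0 CPM in JA WT and 0.497, 0.102 and 0.446 CPM in mock lhp1 (5.94 ± 0.37). TPS04, the synthase of a volatile terpene, had no read in mock lhp1 and 1.66, 1.41 and 1.24 CPM in JA WT, at least 29.5-fold higher. VSP1 and VSP2, and the PDF1.2 defensin genes, are near-identical and uncertain as single genes.

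**Figure D3:**
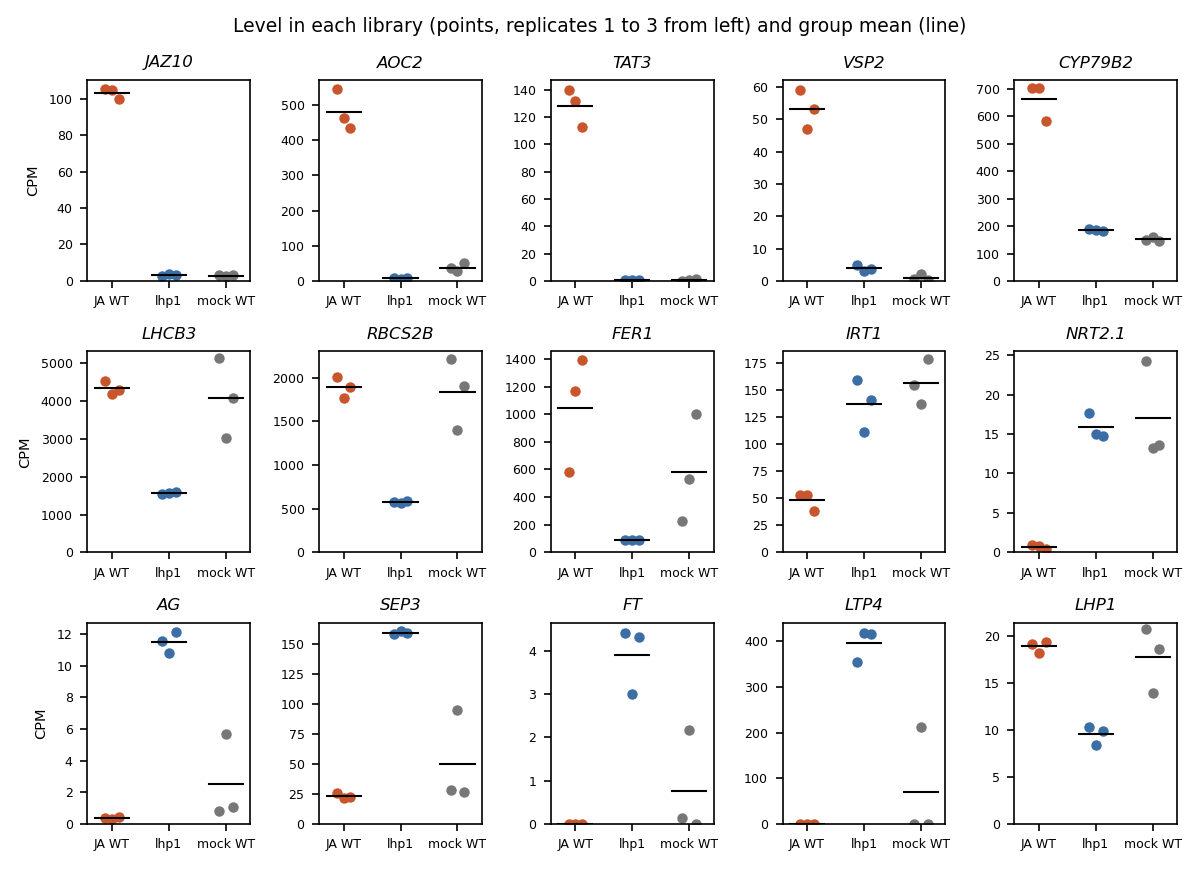
Level of 15 genes in each library (CPM, linear axes from 0), with JA WT in orange, mock lhp1 in blue and mock WT in grey. Points are libraries and the black line is the group mean. JAZ10, AOC2, TAT3, VSP2 and CYP79B2 were high in JA WT alone, LHCB3 and RBCS2B were low in mock lhp1 alone, NRT2.1 and IRT1 were low in JA WT alone, and AG, SEP3, FT and LTP4 were high in mock lhp1 and intermediate in mock WT replicate 2.

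Indole glucosinolates, sulfur-rich defence compounds made from tryptophan, were separated along the whole route. All 19 listed genes were tested, 18 were higher in JA WT, 12 of them at least 2-fold, and MYB51 alone was not called (−0.09), though it was lower with total counts. CYP79B2, which turns tryptophan into its aldoxime, was measured at 703, 705 and 582 CPM in JA WT replicates 1 to 3 and at 188, 185 and 182 CPM in mock lhp1 replicates 1 to 3 (1.84 ± 0.07, edgeR adjusted p = 4.03e-12). CYP83B1, the next step, stood at 779, 771 and 634 CPM in JA WT and 226, 222 and 222 CPM in mock lhp1 (1.71 ± 0.07). ASA1, the first enzyme of tryptophan synthesis, stood at 189, 177 and 182 CPM in JA WT and 51.0, 53.2 and 52.6 CPM in mock lhp1 (1.803 ± 0.05), and the methyltransferase gene IGMT1, one of a cluster of close copies, differed by 1.94 ± 0.08. In CYP79B2, CYP83B1 and ASA1 the lowest JA WT library was more than 2-fold above the highest mock lhp1 library. Summed, the list came to 5709, 5637 and 5039 CPM in JA WT, 2347, 2346 and 2293 CPM in mock lhp1 and 1891, 2059 and 1914 CPM in mock WT, 2.35 times as much in JA WT as in mock lhp1.

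The aliphatic branch, made from methionine, differed far less. All 14 listed genes were tested, 10 were higher and 2 lower, but the median was 0.36 and 2 genes reached 2-fold, MYB76 (1.34 ± 0.35) and CYP79F1 (1.03 ± 0.08). MAM3 (−0.57) and MYB28 (−0.19) were the lower genes. CYP79F2, next to CYP79F1 and a near copy, was not called (0.04), nor was SOT18 (−0.04). With total counts 7 were higher and 4 lower, with a median of 0.12, and CYP79F1 was at 0.79, below 2-fold. The difference between the branches was not tested as such.

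Myrosinases, which cleave glucosinolates, and proteins of the endoplasmic reticulum bodies that store beta-glucosidases were also higher in JA WT, 11 of 12 genes, with a median of 1.07. BGLU18 was measured at 695, 535 and 569 CPM in JA WT replicates 1 to 3 and at 58.6, 55.0 and 49.5 CPM in mock lhp1 replicates 1 to 3 (3.46 ± 0.11, edgeR adjusted p = 6.99e-09), without overlap. BGLU22 differed by 1.85 ± 0.06 and ESP, which steers the breakdown towards nitriles, by 1.45 ± 0.19. PYK10, the abundant root beta-glucosidase, was not called (−0.09; 4645, 4713 and 4569.9 CPM in JA WT and 4931, 5125 and 4748 CPM in mock lhp1). ESM1, a modifier of ESP, was the exception by its level in mock WT: it stood at 864, 1041 and 862 CPM in JA WT and 195, 194 and 204 CPM in mock lhp1 (2.22 ± 0.07) and at 774, 566 and 1014 CPM in mock WT, beside JA WT. BGLU21 and BGLU22 are tandem copies and uncertain as single genes.

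Sulfate assimilation and glutathione synthesis, which supply sulfur, showed smaller differences of the same sign: 10 of 12 genes were higher, 2 at least 2-fold, none lower (8 higher and 2 lower with total counts), with a median of 0.58. ATPS3, an ATP sulfurylase gene, stood at 93.8, 86.6 and 79.6 CPM in JA WT and 28.6, 28.1 and 27.4 CPM in mock lhp1 (1.63 ± 0.07), and APK2, which makes the sulfate donor of glucosinolates, at 367, 338 and 299 CPM in JA WT and 149, 153 and 148 CPM in mock lhp1 (1.16 ± 0.07). GSH2 and GSH1, the enzymes of glutathione synthesis, differed by 0.88 ± 0.05 and 0.80 ± 0.06. APR2 (0.00) and SULTR1;1 (−0.32) were not called.

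Within flavonoid synthesis the early and the late genes named here parted. Of 16 genes tested, 9 were higher, 5 lower and 2 not called. The higher gene below 2-fold and the 2 genes not called are not named here. Summed, the list came to 462, 502 and 405 CPM in JA WT and 499, 516 and 479 CPM in mock lhp1, so the sums overlapped. The 8 genes at least 2-fold higher were late genes of anthocyanin synthesis and regulators of them: PAP1, the MYB activator of anthocyanin genes, stood at 4.04, 2.91 and 2.24 CPM in JA WT and 0.0497, 0.102 and 0.356 CPM in mock lhp1 (4.07 ± 0.43; 5.23 without mock lhp1 replicate 3), DFR at 12.1, 14.6 and 11.0 CPM in JA WT and 3.33, 3.62 and 3.43 CPM in mock lhp1, and 5MAT and UGT79B1, which decorate anthocyanins, differed by 2.08 ± 0.30 and 1.98 ± 0.21. The 5 lower genes were CHS (−0.25), F3H (−0.42), TT7 (−0.47), FLS1 (−0.57) and the regulator EGL3 (−0.36). CHS, the entry enzyme, stood at 217, 239 and 199 CPM in JA WT and 259, 275 and 243 CPM in mock lhp1, so its groups lay close together without overlap. All the anthocyanin genes named here were at or below 15 CPM.

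**Figure D4:**
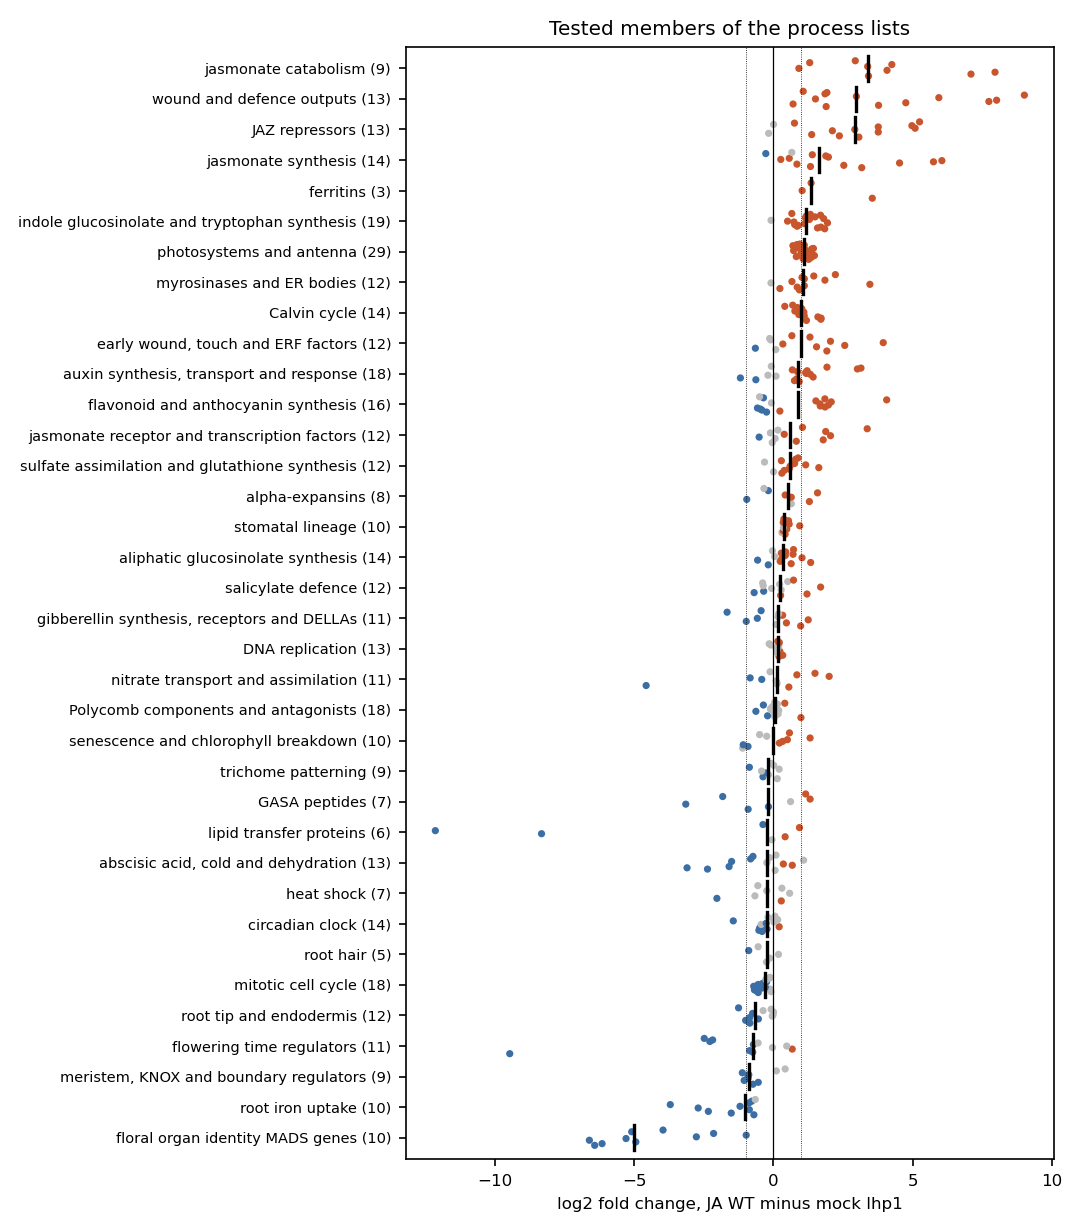
Each row is a list of genes with a known role, ordered by median, and each point is a tested member placed by its log2 fold change, JA WT minus mock lhp1 (x axis). Orange and blue points were called higher and lower in JA WT, grey points were not called, black bars are list medians, and dotted lines mark 2-fold. Medians of the genes that passed the filter ran from −5.02 for floral organ identity MADS genes to 3.41 for jasmonate catabolism.

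On the opposite side stood the floral genes. 10 of the 14 listed genes passed the filter, all 10 were lower in JA WT, 9 of them at least 2-fold, and the median was −5.02; AP1, FUL, CAL and AGL6 did not pass it. AG (AT4G18960, chromosome 4, 10382856–10388539), which specifies stamens and carpels, was measured at 0.383, 0.291 and 0.414 CPM in JA WT replicates 1 to 3 and at 11.5, 10.8 and 12.1 CPM in mock lhp1 replicates 1 to 3 (−4.94 ± 0.19, edgeR adjusted p = 1.35e-12). SEP3 (AT1G24260, chromosome 1, 8593536–8596123), a partner of all floral organ factors, was measured at 26.0, 21.4 and 22.9 CPM in JA WT replicates 1 to 3 and at 159, 161 and 159.7 CPM in mock lhp1 replicates 1 to 3 (−2.77 ± 0.07, edgeR adjusted p = 5.52e-15). AP3 and PI, which together specify petals and stamens, stood at 0.383, 0.437 and 0.241 CPM in JA WT and 29.7, 30.5 and 29.2 CPM in mock lhp1 and at 0.128, 0.0485 and 0.138 CPM in JA WT and 8.36, 8.06 and 8.11 CPM in mock lhp1. SEP1 and SEP2 differed by −6.61 ± 0.23 and −5.29 ± 0.44. SEP3 kept over 20 CPM in every JA WT library while AP3, PI, AG, SEP1 and SEP2 stayed below 1 CPM in all of them. Summed, the list came to 32.0, 26.99 and 28.8 CPM in JA WT, 254, 257 and 257 CPM in mock lhp1 and 35.5, 149 and 34.6 CPM in mock WT. Mock WT replicates 1 and 3 lay beside JA WT and mock WT replicate 2 about midway.

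Flowering time regulators were lower in JA WT in 7 of 11 genes tested and higher in 1, with a median of −0.74. Of all tested genes 25.9% were lower and 26.9% higher. FT (AT1G65480, chromosome 1, 24331373–24333999), the mobile flowering signal, had no read in JA WT and 4.43, 3.01 and 4.32 CPM in mock lhp1, at least 96.0-fold higher in mock lhp1 (edgeR adjusted p = 5.38e-09). TFL1, its antagonist in the shoot tip, stood at 0.553, 0.388 and 0.586 CPM in JA WT and 2.84, 3.52 and 2.45 CPM in mock lhp1 (−2.49 ± 0.27), AGL24 at 2.43, 1.46 and 1.93 CPM in JA WT and 10.5, 8.41 and 9.62 CPM in mock lhp1 (−2.29 ± 0.17) and AGL19 at 0.213, 0.340 and 0.483 CPM in JA WT and 1.59, 1.73 and 1.56 CPM in mock lhp1 (−2.18 ± 0.33). FLC (AT5G10140, chromosome 5, 3173382–3179448), the classic Polycomb-silenced repressor of flowering, was measured at 2.64, 2.57 and 3.55 CPM in JA WT replicates 1 to 3 and at 4.13, 6.02 and 5.88 CPM in mock lhp1 replicates 1 to 3 (−0.86 ± 0.19, edgeR adjusted p = 9.48e-04). Its groups did not overlap, but the difference was small beside FT. SVP, a repressor of FT, was the 1 higher gene (0.67 ± 0.08; 33.5, 28.5 and 27.7 CPM in JA WT and 18.6, 17.9 and 19.6 CPM in mock lhp1).

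Meristem and boundary regulators differed by less: 7 of 9 genes tested were lower in JA WT and none higher, with a median of −0.89. The share lower was 25.9% over all tested genes. KNAT6, a homeobox gene of boundaries, stood at 5.45, 4.76 and 4.35 CPM in JA WT and 9.70, 9.94 and 7.80 CPM in mock lhp1 (−0.92 ± 0.14), and the leaf genes AS1 (0.11) and AS2 (0.42) were not called. KNAT2, CUC1 and CUC3 are among the lowest genes of the list and lost their calls without single libraries: KNAT2 at −0.93 without mock lhp1 replicate 2, CUC3 at −0.96 without mock lhp1 replicate 1, and CUC1 at −0.72 to −0.94 without any 1 of 4 libraries; CUC1 was also not called with DESeq2, all 9 libraries, no filter or the replicate block (−0.89 to −0.94), and the count of 7 includes these 3. Polycomb components and antagonists had a median of 0.05, LHP1 included. Of 18 tested, LHP1 and ULT1 were higher, and 3 were lower, but with total counts 1 was higher and 10 were lower. EMF1, a plant Polycomb protein, stood at 24.2, 24.8 and 20.8 CPM in JA WT and 32.8, 40.6 and 34.4 CPM in mock lhp1 (−0.63 ± 0.09), JMJ13 (AT5G46910), a demethylase of the mark, differed by −0.36 ± 0.09 and SWN, a methyltransferase, by −0.21; ULT1, an antagonist, differed by 0.41 ± 0.09, which was no longer called with total counts.

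A stricter description counted genes that were on in one group, with at least 1 CPM in all 3 libraries, and near silent in the other, below 0.1 CPM in all 3. Over the 33602 genes in the table, 23 (0.0684%) were on in mock lhp1 and 5 (0.0149%) on in JA WT. The 5 with the highest level in mock lhp1 were CYP709B1, AT1G11590, OPT5, AT3G58250 and AT5G49180. In mock lhp1 the oligopeptide transporter gene OPT5 stood at 9.35, 9.89 and 9.67 CPM and the TRAF-like gene AT3G58250 at 8.11, 12.6 and 7.40 CPM. AT5G49180, which carries the same superfamily label as AT1G11590, stood there at 8.90, 6.22 and 10.4 CPM. OPT5 and AT5G49180 had no read in JA WT, which makes them at least 235-fold and 209-fold higher in mock lhp1. With all 9 libraries in the fit AT1G11590, OPT5 and AT5G49180 were no longer called, at −11.09, −10.82 and −10.64. FT was among the 23, and 3 of them (13.0%) carried the superfamily label of pectin methylesterase inhibitors, against 0.330% of all genes in the table. That label was picked after these genes were seen, so the 2 shares are a description and no test. The sets also differ in kind, since all 23 were protein-coding, against 79.5% of the genes in the table. In mock WT replicate 2 the 23 genes stood at 35.0% to 82.1% of their mock lhp1 mean, while 16 and 19 of them were below 0.1 CPM in mock WT replicates 1 and 3.

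The 5 genes on in JA WT were LCR85, of the small cysteine-rich proteins, UGT76E1, a glucosyltransferase gene, JAZ13, ACS4, an enzyme gene of ethylene synthesis, and TPS04. LCR85 stood at 3.15, 4.17 and 2.48 CPM in JA WT with 1 read in mock lhp1, a ratio of 197 (exact 95% counting interval 35.1 to 7825). UGT76E1 also had 1 read there, a ratio of 135 (exact 95% counting interval 23.9 to 5373), and JAZ13 had 3, a ratio of 42.0 (exact 95% counting interval 14.1 to 206). ACS4 had 2 reads in mock lhp1, a ratio of 46.8 (exact 95% counting interval 12.6 to 391), but stood at 3.65, 1.195 and 1.81 CPM in mock WT, a range that overlapped JA WT (1.32, 1.89 and 1.38 CPM). The other 4 lay below 0.3 CPM in every mock WT library. The number on in JA WT was 9 without JA WT replicate 1 and 9 without mock lhp1 replicate 2. Leaving out a library eases the rule, which asks every library of a group to pass, so the number can rise by that alone. Fitted log2 values of such genes moved too: LCR85 from 7.23 to 9.19 without mock lhp1 replicate 3, UGT76E1 from 6.66 to 8.65 without mock lhp1 replicate 1 and AT3G58250 from −8.93 to −10.63 without JA WT replicate 3.

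All 29 listed genes of photosystems and antenna were higher in JA WT, 19 at least 2-fold, with a median of 1.11. LHCB3, an antenna protein of photosystem II, was measured at 4531, 4197 and 4289.7 CPM in JA WT replicates 1 to 3 and at 1534, 1572 and 1588 CPM in mock lhp1 replicates 1 to 3 (1.47 ± 0.05, edgeR adjusted p = 5.03e-13). PSAO and PSAK, subunits of photosystem I, stood at 1384, 1296 and 1317 CPM in JA WT and 459, 507 and 512 CPM in mock lhp1 and at 942, 998 and 955 CPM in JA WT and 338, 374 and 403 CPM in mock lhp1. LHCB1.1 differed by 1.37 ± 0.06, with reads that may belong to its near copies. All 14 Calvin cycle genes were higher as well, 7 at least 2-fold (median 1.004). RBCS2B, a Rubisco small subunit gene, stood at 2002, 1771 and 1894 CPM in JA WT and 574, 565 and 593 CPM in mock lhp1 (1.71 ± 0.06), and the near-identical RBCS1B, RBCS3B and RBCS1A differed by 1.70 ± 0.06, 1.596 ± 0.06 and 1.18 ± 0.05. With total counts all 43 genes were still called higher.

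The summed photosystem and antenna level was 63199, 60009 and 62007 CPM in JA WT, 27817, 28471 and 28449.6 CPM in mock lhp1 and 74669, 47219.5 and 57844 CPM in mock WT. Mock lhp1 lay below all 6 other libraries, and mock WT spread on both sides of JA WT. Genes of the plastid and mitochondrial genomes were higher in JA WT in 68 of 105 tested and lower in 1 (median 0.66). Polyadenylated RNA selection measures such transcripts poorly. Nuclear genes for ribosomal proteins, organellar ones included, were higher in 195 of 339 and lower in 18, but with a median of 0.21; with total counts the median was −0.03 and 73 were higher and 96 lower, so their direction depends on the scaling.

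**Figure D5:**
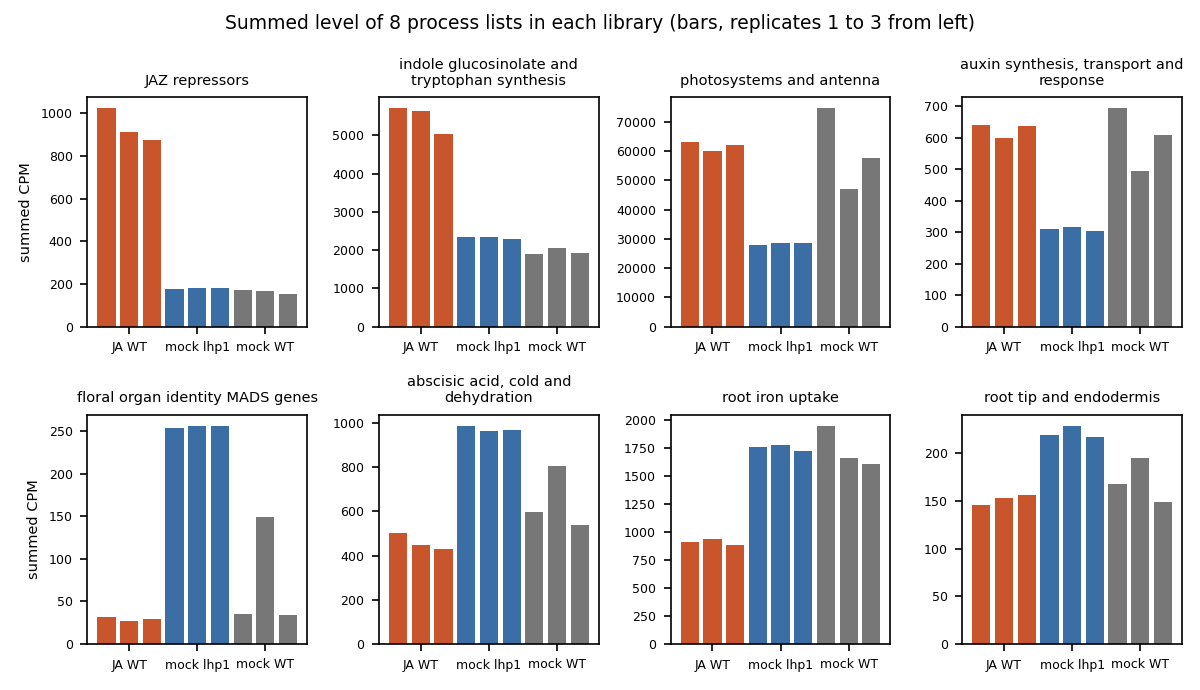
Summed CPM of 8 lists in each of the 9 libraries (linear axes from 0), with JA WT in orange, mock lhp1 in blue and mock WT in grey. JAZ and indole glucosinolate genes were high in JA WT alone, photosystem and auxin genes were low in mock lhp1, floral and cold genes were high in mock lhp1, and root iron uptake genes were low in JA WT alone.

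Auxin genes were mostly on the JA WT side. Of 18 tested, 13 were higher in JA WT and 2 lower, with a median of 0.89. GH3.3, which conjugates auxin and is induced by it, was measured at 40.6, 36.5 and 40.5 CPM in JA WT replicates 1 to 3 and at 11.2, 11.6 and 8.38 CPM in mock lhp1 replicates 1 to 3 (1.92 ± 0.10, edgeR adjusted p = 3.01e-10). YUC8, an enzyme gene of auxin synthesis, stood at 9.53, 10.8 and 10.5 CPM in JA WT and 3.83, 4.38 and 3.297 CPM in mock lhp1 (1.43 ± 0.13). IAA29 and SAUR19, both early auxin response genes, stayed at or below 3 CPM in these 6 libraries and differed by 3.02 ± 0.47 and 3.14 ± 0.50. The lower genes were YUC6 (−1.19) and YUC3 (−0.63), of the YUC8 family. The summed level was 642, 598 and 636 CPM in JA WT, 311, 317 and 304 CPM in mock lhp1 and 693, 495 and 608 CPM in mock WT, again lowest in mock lhp1.

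Growth genes of the gibberellin pathway went both ways. All 11 listed genes were tested, 4 were higher and 4 lower, against 26.9% and 25.9% over all tested genes. The median of 0.17 changes sign with the scaling. GA20OX2, a synthesis gene, stood at 2.21, 1.602 and 1.66 CPM in JA WT and 5.37, 5.97 and 6.01 CPM in mock lhp1 (−1.66 ± 0.17). Among the DELLA repressors RGL3 (1.25 ± 0.17) and GAI (0.98 ± 0.06) were higher and RGL2 (−0.98 ± 0.14) lower. GAI stood at 63.5, 58.8 and 59.1 CPM in JA WT and 31.2, 31.2 and 29.7 CPM in mock lhp1 and at 59.8, 40.6 and 52.1 CPM in mock WT, and RGL3 at 6.55, 8.49 and 8.86 CPM in JA WT and 4.03, 3.31 and 2.76 CPM in mock lhp1 and at 2.18, 3.08 and 1.81 CPM in mock WT, so that mock WT replicates 1 and 3 were nearer JA WT for GAI, and all 3 mock WT libraries were beside mock lhp1 for RGL3. The GASA peptide genes, known as gibberellin-responsive, were split too. GASA5 stood at 0.979, 0.777 and 1.000 CPM in JA WT and 8.61, 7.09 and 9.09 CPM in mock lhp1 (−3.15 ± 0.19) and GASA10 (AT5G59845) differed by −1.82 ± 0.23, while GASA9 (AT1G22690) and GASA14 were higher by 1.32 ± 0.13 and 1.16 ± 0.09. Of the alpha-expansins, which loosen cell walls, EXPA3 was higher (1.29 ± 0.11) and EXPA4 lower (−0.96 ± 0.06). EXPA8 differed by 1.58 ± 0.40 and lost its call without any 1 of the mock lhp1 libraries, at 1.58 in each case.

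Root iron uptake genes were lower in JA WT in 9 of 10 genes tested, 5 at least 2-fold, with a median of −1.04. IRT1, the iron transporter, was measured at 53.2, 53.3 and 38.3 CPM in JA WT replicates 1 to 3 and at 159.7, 112 and 141 CPM in mock lhp1 replicates 1 to 3 (−1.52 ± 0.20, edgeR adjusted p = 0.00246). FRO2, the ferric reductase, stood at 18.1, 18.3 and 15.4 CPM in JA WT and 105, 70.3 and 85.4 CPM in mock lhp1 (−2.34 ± 0.17). The regulators BHLH38 and BHLH100 differed by −2.70 ± 0.37 and −3.71 ± 0.48, the latter by −4.81 without JA WT replicate 1. CYP82C4 was the gene not called (−0.65, edgeR adjusted p = 0.154). Mock WT lay beside mock lhp1, with IRT1 at 155, 138 and 179 CPM and FRO2 at 90.3, 81.1 and 95.7 CPM.

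The 3 ferritins, which store iron, were all higher in JA WT. FER1 was measured at 580.1, 1168 and 1389 CPM in JA WT replicates 1 to 3 and at 87.6, 90.5 and 89.8 CPM in mock lhp1 replicates 1 to 3 (3.55 ± 0.40, edgeR adjusted p = 0.00216). Its JA WT values spread more than 2-fold, with replicate 1 the lowest, and so did those of mock WT at 229, 528 and 999 CPM, while mock lhp1 was tight. FER4 and FER3 differed by 1.35 ± 0.17 and 1.03 ± 0.13. NRT2.1, the main high-affinity nitrate transporter gene, was measured at 0.893, 0.777 and 0.379 CPM in JA WT replicates 1 to 3 and at 17.7, 15.0 and 14.8 CPM in mock lhp1 replicates 1 to 3 (−4.57 ± 0.20, edgeR adjusted p = 7.61e-12), and at 24.3, 13.2 and 13.6 CPM in mock WT. NRT1.8, which takes nitrate back from the xylem, was higher in JA WT at 93.9, 72.0 and 70.8 CPM in JA WT and 19.1, 19.6 and 20.3 CPM in mock lhp1 (2.001 ± 0.11). GLU1 and GLN2, leaf enzymes of ammonium assimilation, were higher by 1.49 ± 0.07 and 0.84 ± 0.05, with GLU1 at 1012, 711 and 1041 CPM in mock WT, beside JA WT.

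In the early wound, touch and ERF list 8 of 12 genes tested were higher in JA WT and ERF6 was lower (−0.65). The shares over all tested genes were 26.9% higher and 25.9% lower. WRKY40 stood at 46.5, 37.3 and 44.5 CPM in JA WT and 2.94, 2.24 and 3.12 CPM in mock lhp1 (3.94 ± 0.12), ZAT10 differed by 2.05 ± 0.13, ERF2 by 1.92 ± 0.10 and ERF13 by 2.56 ± 0.30. In salicylate defence 12 of the 16 listed genes were tested, 4 were higher and 2 lower, near the shares over all genes, and with total counts 2 were higher and 4 lower. PR1 did not pass the filter. EDS5, a transporter for the salicylate precursor, was higher (1.21 ± 0.13; 56.3, 45.3 and 38.6 CPM in JA WT and 19.9, 21.4 and 19.3 CPM in mock lhp1), and PAD4 (−0.69 ± 0.11) and EDS1 (−0.35), partners in immune signaling, were lower. PR2 differed by 1.69 ± 0.38 at low levels (0.936, 0.777 and 1.24 CPM in JA WT and 0.398, 0.255 and 0.267 CPM in mock lhp1).

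The cold and dehydration genes called at 2-fold or more stood on the mock lhp1 side. Of 13 genes tested, 6 were lower in JA WT, against 25.9% of all tested genes. KIN1 and KIN2 were higher (0.68 and 0.36), neither of them called with total counts. COR47, a dehydrin gene, was measured at 166, 172 and 160.2 CPM in JA WT replicates 1 to 3 and at 501, 497 and 506 CPM in mock lhp1 replicates 1 to 3 (−1.59 ± 0.05, edgeR adjusted p = 2.13e-13), and at 294, 426 and 269 CPM in mock WT. ERD10 stood at 99.4, 86.3 and 72.0 CPM in JA WT and 249, 242 and 238 CPM in mock lhp1 (−1.50 ± 0.10) and COR15A, which protects chloroplast membranes, at 0.851, 0.582 and 0.724 CPM in JA WT and 6.57, 6.12 and 6.10 CPM in mock lhp1 (−3.10 ± 0.20). RAB18 differed by −2.37 ± 0.46 at low levels (0.255, 0.146 and 0.172 CPM in JA WT and 0.547, 1.33 and 1.16 CPM in mock lhp1). The abscisic acid phosphatase genes HAB1 (−0.82) and ABI2 (−0.73) were lower as well. RD29A (0.06) and CBF2 (1.08; 0.511, 0.777 and 0.586 CPM in JA WT and 0.0995, 0.255 and 0.490 CPM in mock lhp1) were not called. In the heat shock list HSP18.2 was lower at 4.98, 3.93 and 4.001 CPM in JA WT and 16.8, 18.4 and 17.55 CPM in mock lhp1 (−2.03 ± 0.11). HSP101 was called higher at 0.28, a call lost without JA WT replicate 1 (0.185) and without mock lhp1 replicate 1 (0.212). It was also lost with total counts (0.042) and with all 9 libraries in the fit (0.312). The other 5 tested genes were not called.

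Division genes were slightly lower in JA WT. In the mitotic list 12 of 18 were lower, none at 2-fold and none higher, with a median of −0.31. CDKB1;1, a mitotic kinase gene, stood at 8.08, 9.12 and 10.04 CPM in JA WT and 15.1, 14.8 and 14.8 CPM in mock lhp1 (−0.71 ± 0.10), and the cyclin genes CYCB1;4 and CYCB1;3 differed by −0.68 ± 0.10 and −0.61 ± 0.12. The DNA replication genes did not share that sign: 6 of 13 were called higher, at 0.16 to 0.33, but with total counts none was higher and 2 were lower, so no direction can be given. Core and linker histone genes had a median of 0.02, with 4 of 58 higher and 13 lower. Over all tested genes 26.9% were higher and 25.9% lower, so the share of histone genes lower was near that of all genes. With total counts none of the histone genes was higher and 33 were lower. Clock genes were lower in 7 of 14 and higher in 1, with ELF4 alone at 2-fold (−1.44 ± 0.21; 1.66, 1.16 and 1.52 CPM in JA WT and 3.78, 3.42 and 4.68 CPM in mock lhp1) and LHY, PRR9 and CCA1 at −0.52, −0.49 and −0.41.

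Senescence genes gave no common sign, with 5 of 10 genes tested higher and 2 lower, against 26.9% and 25.9% over all tested genes. ANAC092, a senescence regulator, was higher (1.32 ± 0.22; 15.2, 18.6 and 26.6 CPM in JA WT and 8.90, 7.09 and 8.38 CPM in mock lhp1), with mock WT at 15.9, 15.0 and 18.04 CPM. NYE1, which starts chlorophyll breakdown, was lower (−0.91 ± 0.10). In the seed maturation list 2 of the 9 listed genes passed the filter. SESA1, a storage albumin gene, stood at 0.596, 0.922 and 0.517 CPM in JA WT and 0.0497, 0.153 and 0.0446 CPM in mock lhp1 (2.96 ± 0.59; 3.67 without mock lhp1 replicate 2), and DOG1 was not called (−0.50).

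Markers of cell types moved by modest amounts. Casparian strip genes of the root endodermis were lower in JA WT: ESB1 stood at 31.3, 36.3 and 37.1 CPM in JA WT and 62.4, 64.2 and 62.9 CPM in mock lhp1 (−0.85 ± 0.07) and CASP2 differed by −0.88 ± 0.11, while the tissue's regulators SHR (−0.04) and SCR (−0.01) were not called. The root cap gene SMB differed by −1.25 ± 0.28 (0.766, 1.02 and 1.45 CPM in JA WT and 3.43, 1.99 and 2.45 CPM in mock lhp1). Over the list, 7 of 12 were lower and none higher, and the summed level was 145, 154 and 156 CPM in JA WT, 219.7, 229 and 217 CPM in mock lhp1 and 168, 195 and 149 CPM in mock WT. Of 5 root hair markers COBL9 alone was called (−0.89 ± 0.10), and the list summed to 138 to 187 CPM in JA WT and 196 to 250 CPM in mock lhp1. Stomatal lineage genes were higher in 8 of 10, none at 2-fold, with a median of 0.40 and EPF2, a peptide that limits stomata, at 6.59, 5.19 and 5.07 CPM in JA WT and 3.13, 2.91 and 2.72 CPM in mock lhp1 (0.94 ± 0.16); with total counts 1 of them was still called. Among 9 trichome patterning genes 3 were lower, GL2 by −0.38, TTG1 by −0.28 and ETC1 by −0.86. For so few genes this is near the 25.9% lower over all tested genes. TTG1 lost its call without JA WT replicate 2 (−0.197) and ETC1 without JA WT replicate 3 (−0.594), among others. The part of cell type numbers in the iron, photosynthesis and growth results was not tested.

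The position of mock WT divided these processes into groups by description. Among genes called at 2-fold or more, each mock WT library was nearer the mock lhp1 mean in all 10 JAZ genes, all 9 synthesis, 12 defence output, 12 indole glucosinolate and 8 flavonoid genes (log2 of CPM + 0.5). Each was nearer the JA WT mean in all 19 photosystem and 7 Calvin cycle genes. For the 9 floral organ genes mock WT replicates 1 and 3 were nearer JA WT in every case, and replicate 2 nearer mock lhp1 in every case. For 5 root iron uptake genes the number nearer mock lhp1 was 5, 5 and 4 in mock WT replicates 1 to 3. Over all 1014 genes at least 2-fold higher in JA WT, 523, 643 and 525 were nearer mock lhp1 in the 3 mock WT libraries, and over all 1466 genes at least 2-fold lower, 610, 1290 and 491 were. These are levels of single libraries set side by side, with no test.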

How the data were processed

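Polyadenylated RNA of 9 seedling libraries was sequenced, 3 in each of 3 groups, and the 6 libraries of JA WT and mock lhp1 were compared. The authors deposited raw counts per gene for each library; TopHat, HTSeq, edgeR and the TAIR10 build are named in the submitters' processing notes, without versions. Strand use and the treatment of reads with several matches are not given in the sources used here. 3 further per-library columns match no label and were not used here. The design text calls the libraries biological replicates, and p-values measure the spread between them.

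Counts were tested by a robust quasi-likelihood F test in edgeR 4.0.16 under R 4.3.3 (two-sided, after TMM scaling and the low-count filter filterByExpr), and p-values were adjusted over all 20613 tested genes by the Benjamini-Hochberg method, with a threshold of 0.05. The script was tested on simulated data. Values after ± were computed as the absolute log2 fold change over the square root of F. CPM used the TMM factors of the 6 libraries, and mock WT was brought to that scale through factors of all 9. Bounds for genes without a read used a floor of 3 counts over the group; floors and exact intervals (95%) cover counting error only. Loci were matched to RefSeq, with 32835 of 33602 found. DESeq2 1.42.0, RLE factors, total counts, no filter, all 9 libraries in the fit, the replicate block and leaving out each library were alternatives. Other steps used Python 3.11.15, SciPy 1.17.1 and matplotlib 3.10.9.

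Same-numbered libraries of the groups did not deviate together (correlations −0.081, 0.0016 and 0.0077), so the numbers were not taken as pairs. The comparison and the 37 lists (477 genes, 436 tested) were chosen with earlier results of these data known. Named genes were the 10 largest differences in each direction (called, mean of at least 5 CPM, no overlap), the 4 called genes of each list that differed most, uncalled members where 5 or fewer, the 5 highest genes on in each group, and LHP1, JAZ10, VSP2, MYC2, AG, SEP3, FT and FLC. Other genes named from the lists, such as JAR1, MYC4, CHS, JAZ3, PSAH2, SVP and KIN1, were chosen after their values were seen. The genes labelled pectin methylesterase inhibitor, neighbouring genes and the position of mock WT were also added after the data were seen. So were the run shared by LTP3 and LTP4 and the families with total counts. A result on 1 gene that the rule names is not reported here.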

Additional observations from a re-analysis of the deposited data

How the results depend on the processing

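Scaling was the choice with the widest effect: with total counts 2988 genes were higher in JA WT and 10223 lower, and 22.6% of calls were higher in place of 51.0%, while no gene called both ways changed direction. With the replicate block 5456 genes were higher and 5247 lower, with DESeq2 5030 and 4776, and with all 9 libraries in the fit 5271 and 4239. The numbers do not pair the libraries, and the block is given for completeness. Without 1 library, 4900 to 5505 genes were higher and 4699 to 5287 lower, 1020 to 1054 and 1441 to 1551 of them at least 2-fold. Then 5 to 9 genes were on in JA WT and 25 to 29 on in mock lhp1, under a rule that is easier to meet with fewer libraries.

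With total counts the medians of Polycomb components (−0.193), DNA replication (−0.083), nitrate (−0.116) and gibberellin genes (−0.068) turned negative, as did MCM6 (−0.0076), MCM4 (−0.017) and RNR1 (−0.028). The seed maturation median was −0.74 without the filter and −3.25 to 1.57 without 1 library, since other genes then entered the list. The senescence median was 0.010 with all 9 libraries and −0.067 to 0.122 without 1 library, and the nitrate median −0.036 to 0.231. With all called genes the G-box, telobox and GAGA shares of the higher genes were 10.7%, 7.93% and 7.44%. The cause of the other changes was not tested. Of 158 named genes, 22 lost the call or turned in at least 1 alternative, 13 of them without 1 library: CUC1, CUC3, KNAT2, ETC1, TTG1, CBP60G, NYE2, STOMAGEN, LTP2, EXPA8, HSP101, MCM4 and MCM6. Genes near 0 in a group are limited by depth.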

Other observations

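Genes at least 2-fold different often stood next to each other. Of the genes at least 2-fold higher in JA WT, 22.9% (227 of 992 with a position) had a neighbouring tested gene on the same side, as FAMT and AT3G44870 do, against 9.32% of all tested genes. Of those at least 2-fold lower 21.8% (319 of 1466) did, as LTP3 and LTP4 do, against 13.7% of all tested genes. Tandem copies were not removed.

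Gene families by annotation held both directions. Among 42 tested MADS-box genes 23 were lower in JA WT, 18 of them at least 2-fold, and 5 were higher. Of 111 genes with the superfamily label of pectin methylesterase inhibitors 45 were tested, and 20 were lower and 10 higher, 11 and 4 at least 2-fold. Of 113 defensin and defensin-like genes 15 were tested, and 9 were higher and 4 lower, 7 and 3 at least 2-fold. Over all tested genes 26.9% were higher and 25.9% lower. Of 30 jacalin-related lectin genes 10 were higher and 10 lower, shares near these, and 9 and 15 with total counts; 8 of the higher and 2 of the lower reached 2-fold. Of 48 WRKY factor genes 14 were higher and 17 lower, and 8 and 25 with total counts. Of 13 terpene synthase genes 4 were higher and 6 lower.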
